A study of Spirodela polyrhiza with 4 samples.

Results

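Of the 5726 broad H3K9me2 peaks of *Spirodela polyrhiza* line 9509, 337 (5.89%) were short and solitary. A peak was counted as such when it was shorter than 1000 bp and lay more than 10000 bp from the nearest other peak on each side, or on the only side that had a neighbor for the first and last peak of a chromosome. Among the 2511 peaks under 1000 bp these were 13.4%, and the other 2174 served for comparison. *S. polyrhiza*, the greater duckweed, is a small floating monocot that multiplies by budding, and line 9509 is a genotype kept as clonally grown plants. The series has 4 samples, which are bisulfite libraries of lines 7498 and 9509 and, for line 9509, an H3K9me2 chromatin immunoprecipitation (ChIP) library and its input. The H3K9me2 list of line 9509 came from 1 library of whole plants, with no added treatment named in the labels, in which crosslinked chromatin was pulled down with an antibody against H3K9me2. It therefore averages all tissues of the plant, and no replicate error can be given for any value.

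H3K9me2 is histone H3 dimethylated at lysine 9. In plants it marks silenced chromatin, mostly transposons and other repeats, and it forms a loop with the DNA methyltransferase CMT3: CMT3 binds the mark and methylates CHG sites, and histone methyltransferases that bind methylated DNA place the mark again. Dense H3K9me2 is typical of the repeat-rich sequence around centromeres, whereas on the chromosome arms of small plant genomes it occurs in patches over single repeats.

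Members were chosen by the start and end of each peak, that is by its length and its distance to other peaks. These come from the same peak calls that gave the enrichment, so all values below are descriptive and none were tested. The fold enrichment is the ratio MACS2 gave the authors for the signal of a peak over its estimated background, and −log10 p and −log10 q give the strength of the call, larger being stronger. Because the list carries no read counts, the depth behind a single peak is unknown. Positions are 1-based on the line 9509 genome, and the sources used here do not name its build. No sequence or annotation of that genome was used here, so whether a peak lies in a gene, a transposon or neither was not analysed.

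Short solitary peaks were weakly enriched, with a median slightly below that of the other short peaks and a smaller share of peaks at the strong end. Their fold enrichment had a median of 1.79 (quartiles 1.70 and 1.94) and ran from 1.58 to 2.76. The other peaks under 1000 bp had a median of 1.82 (quartiles 1.72 and 1.97) and ran from 1.44 to 4.15. A range widens with the number of peaks, here 337 against 2174. The difference of the medians was −0.0276, and single short solitary peaks had an SD of 0.194 (n = 337 peaks). Of all 5726 peaks the median was 2.07. Both groups of short peaks thus lay in the lower part of the whole list, and the ranges between their quartiles overlapped over most of their width.

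The strength of the calls followed the same order. The −log10 q of the short solitary peaks had a median of 1.92 (quartiles 1.46 and 2.64), against 2.02 (1.58 and 2.71) for the other short peaks and 3.32 for all peaks. A q under 0.01 was reached by 161 of the 337, or 47.8%, where the share was 51.2% of the other short peaks and 75.7% of all peaks. At the weak end, 29 (8.61%) had a q over 0.05, against 7.68% of the other short peaks and 3.51% of all peaks. The list thus holds short solitary calls that a stricter common threshold would drop, in about the proportion in which it holds other short ones.

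The strong end was thinner. An enrichment of at least 2-fold was reached by 57 short solitary peaks (16.9%), against 21.4% of the other short peaks and 55.7% of all peaks. A q under 1e-05 was reached by 7 (2.08%), against 4.97% and 36.0%. No short solitary peak reached 3-fold, a level that 14 of the other 2174 short peaks (0.644%) and 14.8% of all peaks had. At the share of the other short peaks, a group of this size would hold few such peaks, so this absence adds little.

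**Figure D1:**
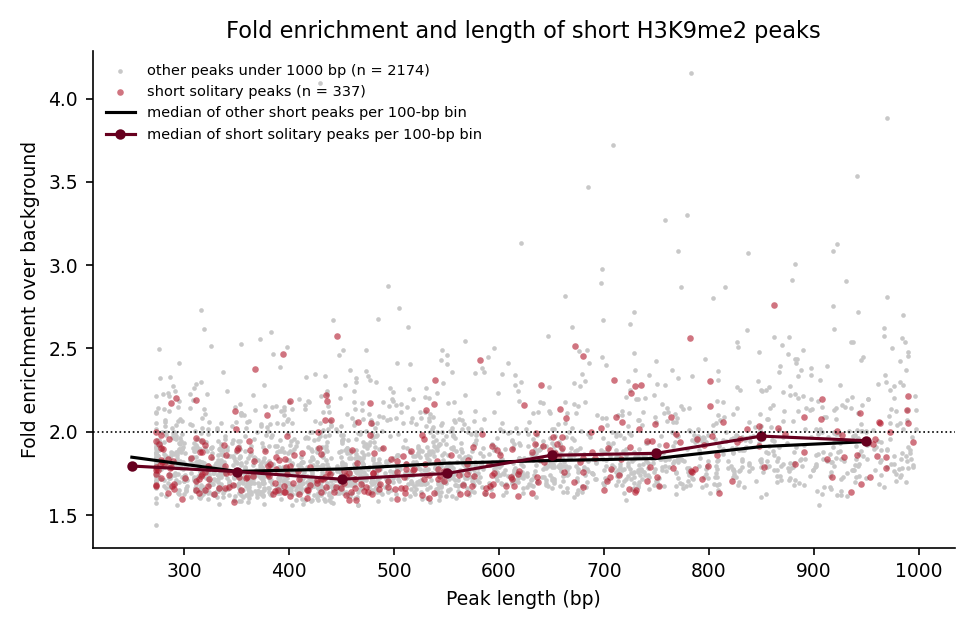
Fold enrichment over background against peak length (bp) for the 337 short solitary peaks (red) and the 2174 other peaks under 1000 bp (gray), with the median of each group in bins of 100 bp. The points overlap over the whole range of length, the dotted line marks 2-fold, and the highest short solitary peak is at 2.76.

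Length differed little between the groups. The median was 510 bp for short solitary peaks (quartiles 387 and 688 bp) and 525.5 bp for the other short peaks (391 and 721 bp). The shortest length in the list, 273 bp, occurred 52 times, and 7 of these peaks (2.08% of the 337) were short solitary ones, against 2.07% of the other short peaks. Enrichment changed with length inside the group: the median fold enrichment was 1.71 for the 65 short solitary peaks from 400 to under 500 bp and 1.97 for the 19 from 800 to under 900 bp. The other short peaks had 1.78 and 1.91 in the same bins. Within the 8 bins of 100 bp the difference between the groups ran from −0.0618 to 0.063. It was negative in the 4 bins under 600 bp and positive in the 4 from 600 bp up. Neither group was therefore above the other at all lengths.

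The 3 longest members lay just below the limit. That of 995 bp on chromosome 6 from 1415297 to 1416291 had a fold enrichment of 1.94, and the peaks of 990 bp on chromosome 14 (4710412 to 4711401) and chromosome 15 (3325900 to 3326889) had 2.06 and 2.21. Just above the limit, the solitary peak of 1003 bp on chromosome 4 from 8578814 to 8579816 had 1.90 and that of 1027 bp on chromosome 14 from 3994190 to 3995216 had 2.58. Values on both sides of 1000 bp thus overlapped. The 3 shortest members by chromosome order were peaks of 273 bp on chromosome 4, at 2141394 to 2141666, 5268293 to 5268565 and 5708862 to 5709134, with a fold enrichment of 1.68, 2.00 and 1.74. These 3 values of equal length reached from below the lower to above the upper quartile of the group.

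Longer peaks were solitary in shares like that of short peaks. Of the peaks under 1000 bp 13.4% were more than 10 kb from any other peak, of those from 1000 to under 5000 bp 10.5%, of those of at least 5000 bp 14.4%, and of all peaks 12.3%. Solitary peaks of the middle class had a median fold enrichment of 2.22 and those of at least 5000 bp one of 3.06. The median of solitary peaks minus that of the other peaks of the same class was −0.0276 for short peaks, −0.122 for the middle class and −0.0419 for the longest. These medians differed more between the length classes than between solitary and other peaks of a class. Length and enrichment come from the same calls, so this is a description and not a ranking of 2 factors.

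The 5 short solitary peaks with the highest fold enrichment were on 4 chromosomes. The first, on chromosome 7 from 1211382 to 1212243, spanned 862 bp, with a fold enrichment of 2.76 and a −log10 q of 8.78. The second, on chromosome 8 from 4865544 to 4865989, had a fold enrichment of 2.57 and, with 10.6, the highest −log10 q of all short solitary peaks at a length of only 446 bp. It stood apart in the strength of the call rather than in its ratio, since the peak on chromosome 18 from 4733916 to 4734697 had nearly the same fold enrichment, 2.56, and a −log10 q of 5.33.

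The next 2 were a peak of 672 bp on chromosome 8 from 3845744 to 3846415, with a fold enrichment of 2.52, and one of 394 bp on chromosome 11 from 379450 to 379843, with 2.47. Their −log10 q values were 4.91 and 5.89. The remaining 3 of the 7 peaks with a q under 1e-05 were those on chromosome 1 from 1730773 to 1731452 (2.45), chromosome 13 from 4727375 to 4727956 (2.43) and chromosome 14 from 1979605 to 1980314 (2.31), and were picked after their values had been seen. The nearest other peak of these 7 was 14725 to 122040 bp away, so the strong calls were not limited to the edge of the 10-kb rule.

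At the other end, the 5 lowest values ran from 1.58 to 1.60. They belonged to peaks on chromosome 9 (5472401 to 5472747, and 1608992 to 1609494), chromosome 5 (3359100 to 3359563), chromosome 19 (443983 to 444439) and chromosome 6 (248488 to 248785). All 5 were between 298 and 503 bp long, and their −log10 q ran from 1.11 to 1.28, close to 1.03, the lowest value in the whole list.

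At a given fold enrichment, the calls were about as strong in both groups where members were most numerous. For peaks with a fold enrichment from 1.7 to 1.8, which held the most members, the median −log10 p was 2.79 in 93 short solitary peaks and 2.83 in 580 other short peaks. From 1.8 to 1.9 it was 3.27 in both. At higher ratios, with fewer members, the medians differed more and in both directions. From 2.1 to 2.2 the median was 4.94 in 15 members and 4.65 in 114 other short peaks. From 2.3 to 2.4 it was 5.76 in 4 members and 6.01 in 41 other short peaks. The peak of chromosome 8 with a −log10 q of 10.6 had a −log10 p of 12.1, whereas the 19 other short peaks between 2.5-fold and 2.6-fold had a median of 6.73. At an equal ratio, a peak with more reads receives a smaller p in MACS2. The reads behind this peak were not analysed here.

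Up to 20 kb, the median fold enrichment of short peaks differed little between bins of distance, and it was lower beyond. The median over peaks under 1000 bp was 1.82 for the 1380 peaks within 1 kb of another peak, 1.81 for the 532 at 1 to 3 kb, 1.83 for the 262 at 3 to 10 kb and 1.85 for the 111 at 10 to 20 kb. It was then 1.79 for the 150 at 20 to 50 kb and 1.75 for the 76 that were over 50 kb away. The most isolated short peaks had the lowest median of the 6 bins, with quartiles of 1.67 and 1.86. Within the short solitary peaks the median thus went down from bin to bin with distance.

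The same order showed in the calls. A q under 0.01 was reached by 55.0% of the short solitary peaks at 10 to 20 kb, 48.7% of those at 20 to 50 kb and 35.5% of those over 50 kb away, against 51.8% of short peaks within 1 kb of another. An enrichment of at least 2-fold was reached by 24.3%, 14.7% and 10.5%. For short peaks nearer to another it was 22.0% within 1 kb, 19.4% at 1 to 3 kb and 22.1% at 3 to 10 kb. By this measure, members at 10 to 20 kb were thus not below the other short peaks. The median lengths of these bins were 518, 491.5 and 533 bp. Their lower quartiles of length were 396, 386 and 380 bp and their upper ones 701.5, 680 and 673 bp. Whether length has a part in the order was not tested. Among members of at least 500 bp alone, the median fold enrichment was 1.89, 1.83 and 1.78 in the 3 bins of distance, and among shorter members it was 1.78, 1.76 and 1.72.

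**Figure D2:**
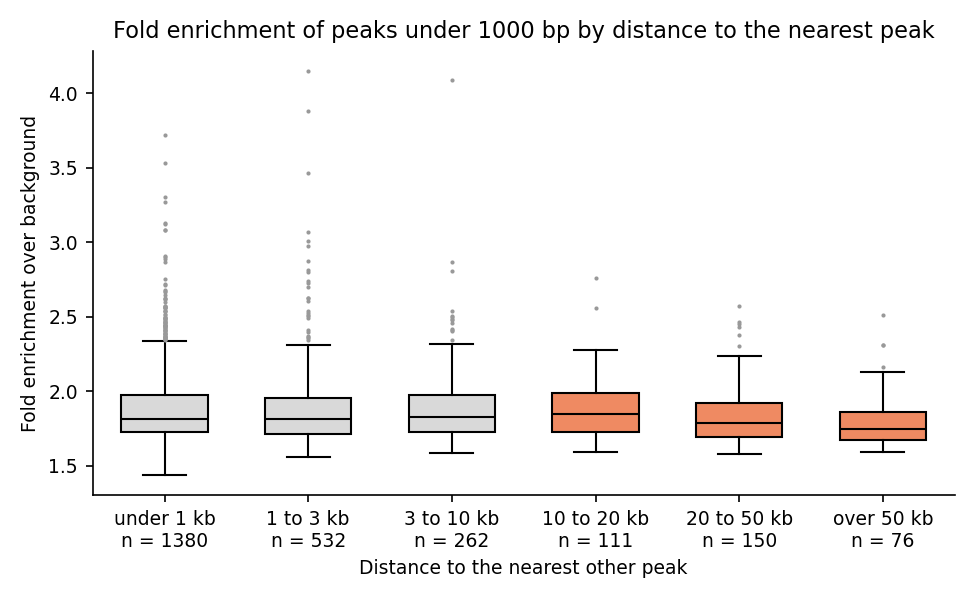
Fold enrichment over background of the peaks under 1000 bp by distance to the nearest other peak, with the short solitary peaks in orange. Boxes give the median and quartiles, whiskers reach the last point within 1.5 times the box, and points are peaks beyond; medians are 1.82, 1.81, 1.83, 1.85, 1.79 and 1.75 from left to right.

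The distance from a short solitary peak to the nearest other peak had a median of 28800 bp (quartiles 16689 and 45158 bp). Just inside the limit were the peaks on chromosome 7 from 4429873 to 4430366 (10096 bp, fold enrichment 1.71) and on chromosome 14 from 4053065 to 4053354 (10130 bp, 1.69). Just outside were the short peaks on chromosome 15 from 634676 to 635605 (9861 bp, 2.15) and on chromosome 7 from 2896940 to 2897261 (9808 bp, 2.23). These pairs show the edge of the rule and stand for no trend, since the medians on both sides of 10 kb were close.

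The most isolated was a peak of 328 bp on chromosome 6 from 7866269 to 7866596, with 347247 bp before it and 231801 bp after it without any other peak. It was weak, with a fold enrichment of 1.63 and a −log10 q of 1.30. The next were on chromosome 20 from 1175373 to 1176011 (176033 bp to the nearest peak, fold enrichment 1.84), chromosome 8 from 2699517 to 2700035 (170767 bp, 1.78), chromosome 9 from 6677027 to 6677619 (168876 bp, 1.62) and chromosome 3 from 2256228 to 2256503 (139194 bp, 1.93). None of the 5 reached 2-fold, and 3 of them had a −log10 q above 2. Among all members 16.9% reached 2-fold and 47.8% had such a q, and among all peaks 55.7% and 75.7%, so these counts set the 5 apart little from other members.

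The gaps beside the members are values that the rule used and are given as a description. Over the 334 members with a peak on both sides, the nearer one was at a median of 29.1 kb and the farther one at 69.3 kb. By definition the farther gap is the larger one. Both gaps were over 50 kb for 75 and over 100 kb for 8. The nearest peak had a median length of 1164 bp and a median fold enrichment of 1.99, and was at least 5000 bp long for 45 members (13.4%). For the other short peaks these values were 1097 bp, 2.05 and 10.8%, so the kind of peak that came next was similar although it was much farther away.

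Of the 337 members, 135 (40.1%) stood in runs of consecutive short solitary peaks, with 46 runs of 2, 10 runs of 3 and 3 longer ones. The rule itself favors runs, because the neighbor of a member already has a gap over 10000 bp toward that member. The nearest peak was under 1000 bp for 44.5% of members and for 46.9% of the other short peaks. Whether members cluster was not tested. The longest run was on chromosome 7, where 5 short solitary peaks followed each other from 6486003 to 6672322. Their lengths were 311, 783, 409, 439 and 704 bp and their fold enrichments 1.71, 1.76, 1.71, 1.75 and 1.90. All 5 were below 2-fold, as were most members, of which 16.9% reached it (55.7% of all peaks). They were separated by gaps of 19272 to 96792 bp.

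Short solitary peaks occurred on all 20 chromosomes, from 8 on chromosome 11 to 27 on chromosome 7, with a median of 16. Per Mb of sequence up to the last peak there were 2.44 in all, with a median over chromosomes of 2.56 (SD 0.764, n = 20 chromosomes). The lowest density was 1.19 on chromosome 11 and the highest 3.79 on chromosome 19, followed by 3.75 on chromosome 20 and 3.64 on chromosome 17. The 8 chromosomes under 6 Mb together had 3.04 per Mb and the 12 longer ones 2.21, while all peaks together had 47.4 and 39.2 per Mb. On chromosome 20, which had the fewest short peaks (58), 25.9% of them were solitary, against 6.20% on chromosome 11.

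The median fold enrichment of the short solitary peaks was below that of the other short peaks on 13 of 20 chromosomes and above it on 7. The differences ran from −0.0983 on chromosome 19 to 0.11 on chromosome 15. By chromosome, the members' median ran from 1.71 on chromosome 16 to 1.93 on chromosome 15, and that of the other short peaks from 1.77 to 1.86. A q under 0.01 was reached by 11 of the 14 members of chromosome 15 and by 1 of the 10 of chromosome 16. Over all chromosomes the share was 47.8% of members, 51.2% of the other short peaks and 75.7% of all peaks. Chromosomes 15 and 16 were picked by their medians, and q and fold enrichment come from the same calls, so this is no separate result. With 8 to 27 members on a chromosome, the medians and counts per chromosome rest on few peaks.

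**Figure D3:**
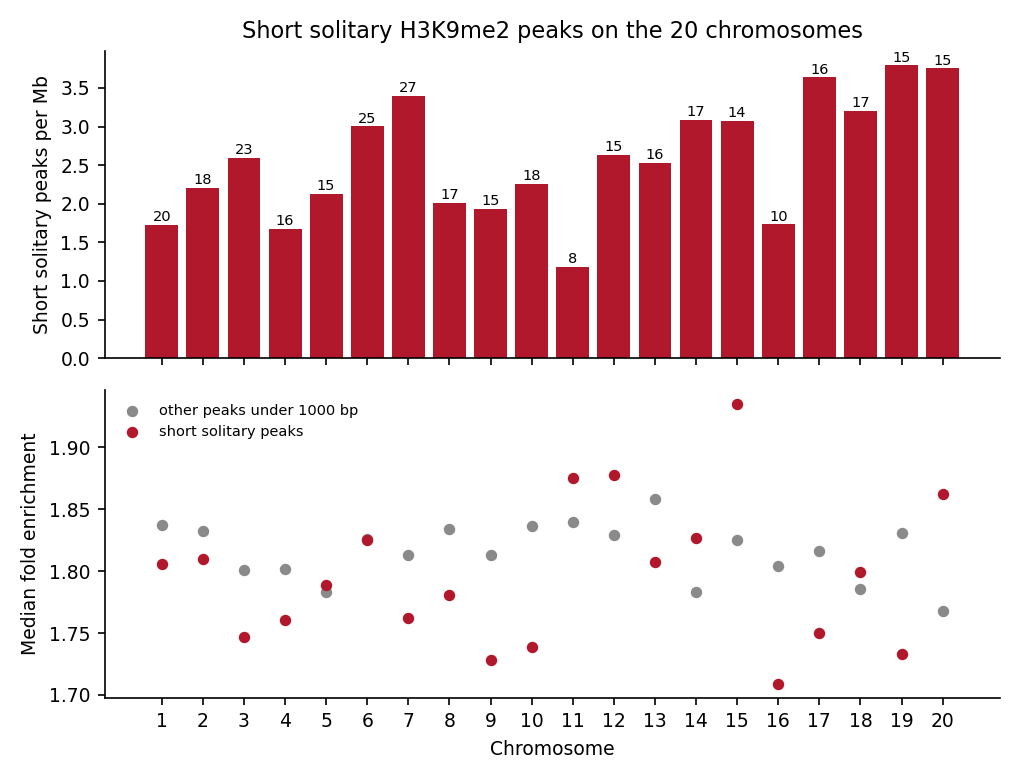
Short solitary peaks per Mb on each chromosome, with their number above the bar (top), and the median fold enrichment of short solitary (red) and other short peaks (gray) on each chromosome (bottom, axis not from 0). Density runs from 1.19 on chromosome 11 to 3.79 on chromosome 19, and the red point is below the gray one on 13 of 20 chromosomes.

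Within a chromosome, most short solitary peaks lay outside the stretch with the densest H3K9me2. Positions of centromeres and arms were not used here. The 500 kb of each chromosome that were most covered by H3K9me2 peaks amount to 7.25% of the sequence and contained 9 of the 337 (2.67%), against 20.7% of the other short peaks. The rule itself sets this, because closely packed peaks cannot be solitary. Of these 9 peaks, 4 lay on chromosome 19, between 3594648 and 3774293, and had fold enrichments of 2.02, 1.73, 1.88 and 1.77. On 14 chromosomes the stretch held none.

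Outside the stretches all peaks became rarer with distance, from 69.3 per Mb at 250 to 500 kb from the center of the stretch to 17.5 beyond 4000 kb. The density of short solitary peaks was 3.47 per Mb at 250 to 500 kb, 2.69 at 500 to 1000 kb, 3.21 at 1000 to 2000 kb and 1.82 beyond 4000 kb. Over the same distances the other short peaks went from 27.1 to 24.6, 14.4 and 6.27 per Mb. The solitary share of short peaks was 11.4% at 250 to 500 kb, 9.85% at 500 to 1000 kb, 18.2% at 1000 to 2000 kb and 22.5% beyond 4000 kb. A higher solitary share where peaks are sparse follows from the rule, as does the steeper fall of the other short peaks. The members' median fold enrichment had no such order, with 1.78 at 250 to 500 kb and at 1000 to 2000 kb, 1.83 in between, 1.77 at 2000 to 3000 kb, 1.86 at 3000 to 4000 kb and 1.77 inside the stretches.

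**Figure D4:**
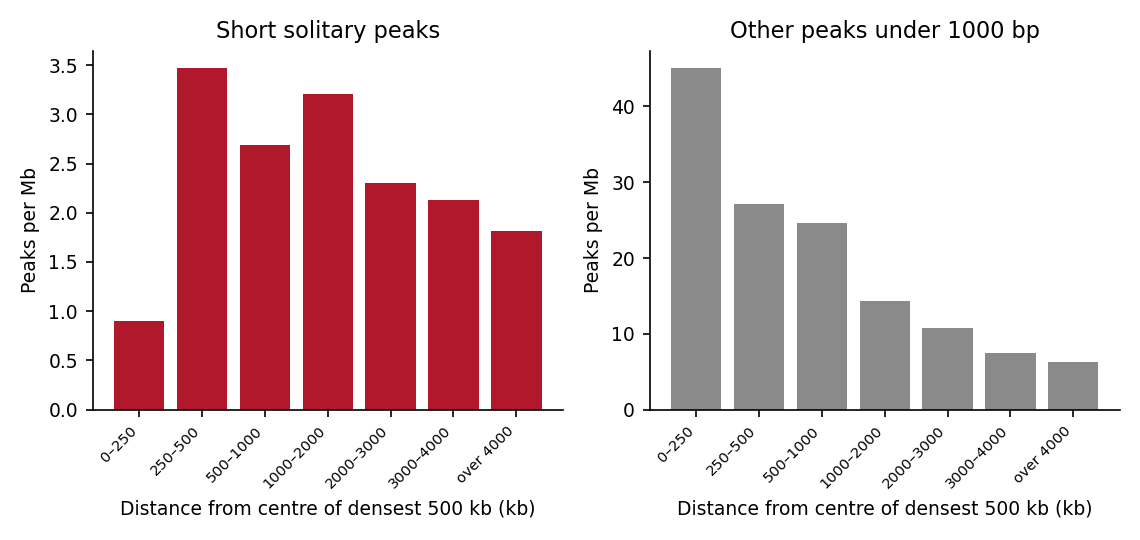
Short solitary peaks (left) and other peaks under 1000 bp (right) per Mb of sequence, by distance in kb from the center of the densest 500 kb of the chromosome, summed over 20 chromosomes and with different vertical scales. Short solitary peaks go from 0.9 per Mb inside the stretch to 3.47 beside it and 1.82 beyond 4000 kb, and other short peaks from 45.1 to 6.27.

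Of the 40 first and last peaks of chromosomes, 3 were short solitary ones (7.5%, against 5.89% of all peaks) and 4 were other short peaks. The rule is easier to meet there, because such a peak needs a wide gap only on the side that has a neighbor. The first peak of chromosome 18, from 18910 to 19447, had a fold enrichment of 2.16 and a −log10 q of 4.19. The first peak of chromosome 13 began only at 328765, ended at 329141 and had 1.89, and the last peak of chromosome 16, from 5772672 to 5773634, had 2.05. All 3 were above the median of the short solitary peaks, 1.79.

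The short solitary peaks held 184 kb, or 1.36% of the length of all peaks. Since each was chosen for the peak-free sequence beside it, leaving them out must join gaps, and the values here give the size of that effect. With them left out, 258 longer gaps would take the place of the gaps beside them, with a median length of 122 kb, and 155 of these were at least 100 kb long. The number of gaps of at least 100 kb went from 329 to 379 and their summed length from 58.2 to 72.0 Mb. For gaps of at least 200 kb the sum went from 25.6 to 35.7 Mb. Leaving out the 258 solitary peaks from 1000 to under 5000 bp instead took the sum for gaps of at least 100 kb to 67.6 Mb, and leaving out the 108 solitary peaks of at least 5000 bp took it to 62.7 Mb. The number of peaks left out differed (337, 258 and 108), so the larger sum for short solitary peaks is no trait of the single peak.

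Of the 2750 windows of 50 kb along the chromosomes, 1036 (37.7%) had no peak, and 1244 (45.2%) had none once the short solitary peaks were left out. In 208 windows they were therefore the only H3K9me2 called. The longest gap went from 665 to 781 kb, on chromosome 1 from 7049822 to 7830445, which was split by a single peak of 528 bp (7164456 to 7164983) with an enrichment of 1.71-fold and a −log10 q of 1.55. On chromosome 4 the gap from 3599867 to 4225090 (625 kb) was split by a peak of 706 bp (3631954 to 3632659) with an enrichment of 1.73-fold. The gap on chromosome 3 from 1912986 to 2395697 (483 kb) was split by the peak at 2256228 described above, whose −log10 q was 2.35. Weak and strong members both added to the total: leaving out only the 176 with a q of 0.01 or more took the windows without a peak to 1141, and leaving out only the 161 with a q under 0.01 took them to 1126.

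**Figure D5:**
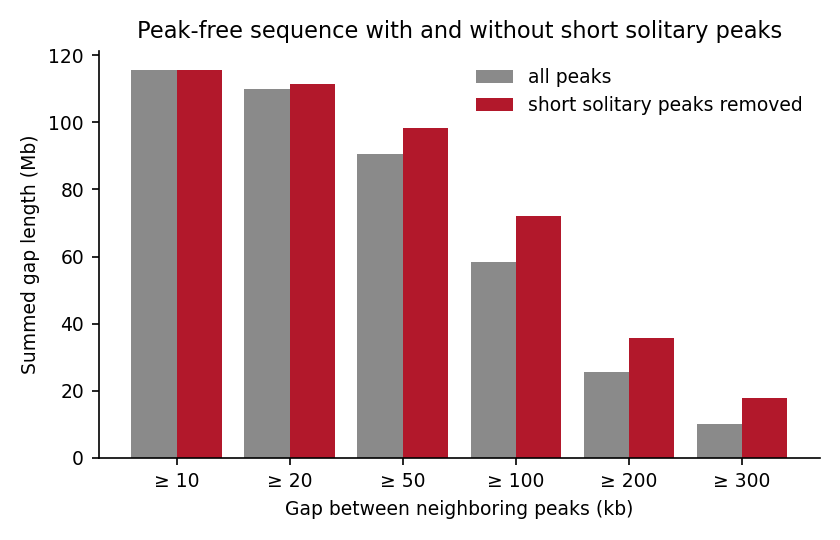
Summed length in Mb of the gaps between neighboring peaks that are at least 10 to 300 kb long, with all peaks (gray) and with the short solitary peaks left out (red). The sums are nearly equal at 10 kb (115.5 and 115.6 Mb) and go from 58.2 to 72.0 Mb for gaps of at least 100 kb.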

How the data were processed

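Per the study's methods, ChIP reads passed through Trimmomatic, bowtie1 (at most 2 mismatches, reads with several genomic places dropped), SAMtools and Picard duplicate removal before broad calling in MACS2. Versions for these reads, and whether the input served as control, are not stated. Dropping such reads lowers signal over near-identical repeats. The deposited fold enrichment is a ratio over the MACS2 background, and the deposited −log10 p and −log10 q are those of MACS2. The deposited score, which is the −log10 q times 10 without its decimals in all 5726 lines, was not used.

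Length was end minus start and gap was next start minus end. Coverage was taken in windows of 50 kb, and the densest stretch is the run of 10 windows with the highest coverage. Chromosome length was the end of the last peak. The code for the rule was run on simulated peaks, which checks only that it applies the rule as written. Members, lists and named regions were chosen with earlier results of these data known. The regions named are the 5 highest and lowest by fold enrichment, the 5 most isolated, the 3 longest and shortest, first or last peaks, those beside each threshold and the longest run; others were picked after their values were seen. Python 3.11.15, NumPy 2.4.6, pandas 2.3.3, SciPy 1.17.1 and Matplotlib 3.10.9 were used. The 3 other samples were not analysed here.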

Additional observations from a re-analysis of the deposited data

How the results depend on the processing

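Alternatives were another limit of distance or length, a stricter list, joined peaks, members without first and last peaks, and comparison within length bins. In all, 44 values were counted as kept and 13 as moved. Joining peaks across gaps up to 1000 bp cannot drop a member, and it gave the same 337. Values of the members alone were therefore identical there and add no support. Leaving out first and last peaks changed little by design, since 334 members remained. Kept meant within 1.5 times for the number of peaks and otherwise within a 95% binomial interval over peaks or chromosomes (for a median, between its order statistics, and for the difference, the bounds of both medians combined), which treats them as independent and is no replicate error. The number of short solitary peaks, 337, was 161 with a limit of 500 bp and 123 in the list enriched at least 2-fold, where neighbors are removed too: 57 of the 123 were members of the main set, as were 161 of the 233 found with q under 0.01. The median fold enrichment was 1.75 under 500 bp, 1.95 with q under 0.01 and 2.15 with at least 2-fold enrichment. The percent with q under 0.01 was 37.3% under 500 bp, 53.7% under 1500 bp and 100% in both stricter lists, and the percent enriched at least 2-fold was 11.8%, 21.7%, 35.2% (q under 0.01) and 100% (2-fold), where the 100% of a list on its own criterion is by construction. The difference in median fold enrichment from the other short peaks stayed negative in all 9 alternatives, from −0.0413 (20000 bp) to −0.0064 (at least 2-fold). Within length bins it was −0.0154, an average weighted by members over bins that were negative under 600 bp and positive from 600 bp up. The percent in the densest 500 kb, 2.67%, counted as kept but was 4.88% with at least 2-fold enrichment, 4.35% with 5000 bp and 1.72% with q under 0.01. The number of chromosomes on which the short solitary peaks were lower ran from 10 to 16. No paired analysis was possible because there is 1 library. Weaker short patches of H3K9me2 than its depth allows to call are not in the list.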
